A study of Mus musculus with 10 samples.

Results

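The genes described are 45 components of the endoplasmic reticulum, taken from a table of 56691 mouse genes by their gene symbols. They comprise 15 folding chaperones and folding enzymes, 4 sensors and regulators of folding stress, 6 genes of endoplasmic reticulum-associated degradation, 9 genes of the translocon, 4 signal peptidase subunits and 7 oligosaccharyl transferase subunits. All 45 symbols were found, and all 45 genes had at least 1 FPKM (fragments relative to gene length and library size) in at least 5 libraries and were among the 11386 genes tested. The genes were chosen by name and function with results of the same genotype comparison known, so the counts and folds given for them describe these libraries and are not independent evidence of a direction. Sequenced RNA came from mouse esophageal epithelium, 5 libraries from wild type and 5 from p63CreERT2;Mst1loxp/loxp;Mst2-/- mice, called knockout. The knockout combines a null Mst2 allele, present in every cell, with an Mst1 allele that is removed by a tamoxifen-inducible Cre named for p63, a transcription factor of basal cells in squamous tissue. Both groups received tamoxifen, 3 doses of 100 mg/kg given every 2 weeks, and the epithelium was collected after about 8 weeks. The sources used here give neither the age nor the strain of the mice, and effects of the Cre allele or of background cannot be told apart from those of the kinases. Nor do the labels tie each library to its own mouse. The p-values therefore measure only the spread between these samples, which may be technical.

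Secreted and membrane proteins enter the endoplasmic reticulum through the Sec61 channel, lose their signal peptide to signal peptidase, receive N-linked glycans from oligosaccharyl transferase and fold with the help of chaperones and disulfide isomerases. Proteins that fail to fold are returned to the cytosol and degraded. Unfolded protein in the lumen is sensed by IRE1 (gene Ern1), PERK (gene Eif2ak3) and ATF6, and the transcription factors ATF6 and XBP1 raise transcription of chaperones through a promoter sequence called the endoplasmic reticulum stress element. The esophageal epithelium is a stratified squamous tissue whose cells make desmosomal and other membrane proteins on this route.

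The libraries held an estimated 13060000 to 16440000 fragments each. Stk3, the gene of Mst2, was at 2.08 to 3.48 FPKM (wild type) and 0.05 to 0.25 FPKM (knockout), and Stk4, the gene of Mst1, at 16.96 to 22.7 FPKM (wild type) and 12.2 to 17.4 FPKM (knockout), a value over the whole gene that does not check the deletion of single exons. The 10 squamous epithelial markers were tested in full, and their summed level lay between 63097 and 70848 FPKM. Most of that sum was Krt13 and Krt4, so it says little of the other markers. Krt14, for example, was at 417 to 1244 FPKM (wild type) and 497 to 1720 FPKM (knockout). Of the 10 markers 0 rose and 1, Trp63, fell. The 8 markers of plasma and B cells, which are rich in endoplasmic reticulum, summed to 0.05 to 0.88 FPKM in wild type and 0.21 to 0.46 FPKM in knockout, and Mzb1, Igkc, Ms4a1 and Tnfrsf17 were at 0 in every library. The 10 gland and secretory cell markers summed to at most 8.09 FPKM in wild type and at most 40.9 FPKM in knockout, with Muc5ac, Bpifb1 and Tff3 at 0. Most of the highest sums was Ltf, at 27.3 FPKM in knockout 2 and 37.9 FPKM in knockout 5 and at 0 to 5.34 FPKM in wild type. Agr2, a disulfide isomerase of secretory cells, was at 0.15 to 0.41 FPKM in the wild-type libraries and at 0.50 to 0.82 FPKM in the knockout libraries, without overlap. None of the 10 reached 1 FPKM in at least 5 libraries, so none was tested. The part of these markers in the results that follow was not tested. The 12 immune cell markers summed to 62.2 to 262 FPKM in wild type and 114 to 1426 FPKM in knockout, mostly S100a9 and S100a8, which were highest in knockout 3 and 5 and did not pass the test. Of the 12, 5 were tested and 0 passed. Ptprc was at 0.02 to 0.17 FPKM in wild type and 0.03 to 0.06 FPKM in knockout, and Cd68 at 4.17 to 11.4 FPKM and 7.37 to 16.6 FPKM. The sum is therefore not a measure of immune cells as a whole. The 8 fibroblast markers summed to 5.07 to 16.2 FPKM in wild type and 0.39 to 2.11 FPKM in knockout, with Col1a2 and Pdgfrb at 0. Dcn, which fell, made up most of that sum in each wild-type library, and Vim in each knockout library but knockout 4. The 5 endothelial markers summed to at most 0.15 FPKM in any library, with Cdh5, Kdr and Emcn at 0, and the 9 muscle markers summed to 1.92 to 3.03 FPKM (wild type) and 2.81 to 4.49 FPKM (knockout), with Des and Myh2 at 0 and Mylpf higher past the test. In tissue RNA of this kind, more cells of a type and more RNA per cell cannot be told apart.

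Many of the 45 genes were higher in the knockout epithelium, with the highest share among the 15 folding chaperones of the list. Of the 45 genes 23 rose (limma, Benjamini-Hochberg adjusted p under 0.05 over all tested genes), which is 51.1%, against 7.9% of all tested genes called higher. None of the 45 fell past the threshold, against 4.96% of all tested genes called lower; at an unadjusted p under 0.05 limma placed 31 higher and 1 lower. The fitted change was positive for 39 of the 45 genes and had a median of 0.41 on the log2 scale, against a median of 0.06 and 58.6% positive over all tested genes. By role, 12 of 15 folding chaperones rose, 1 of 4 stress sensors and regulators, 0 of 6 degradation genes, 5 of 9 translocon genes, 2 of 4 signal peptidase subunits and 3 of 7 oligosaccharyl transferase subunits. The median log2 fold changes, in the same order, were 0.65, -0.08, 0.17, 0.46, 0.32 and 0.40. The ranges of wild-type and knockout values did not overlap for 19 of the 45 genes, all with knockout higher, where 6.62% of all tested genes had such ranges with knockout higher and 3.88% with knockout lower. Together the 45 genes made up 0.478% to 0.592% of all FPKM in wild type and 0.639% to 0.758% in knockout. Fold changes are differences of log2(FPKM + 1), knockout minus wild type, and understate the change of genes with low values.

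**Figure D1:**
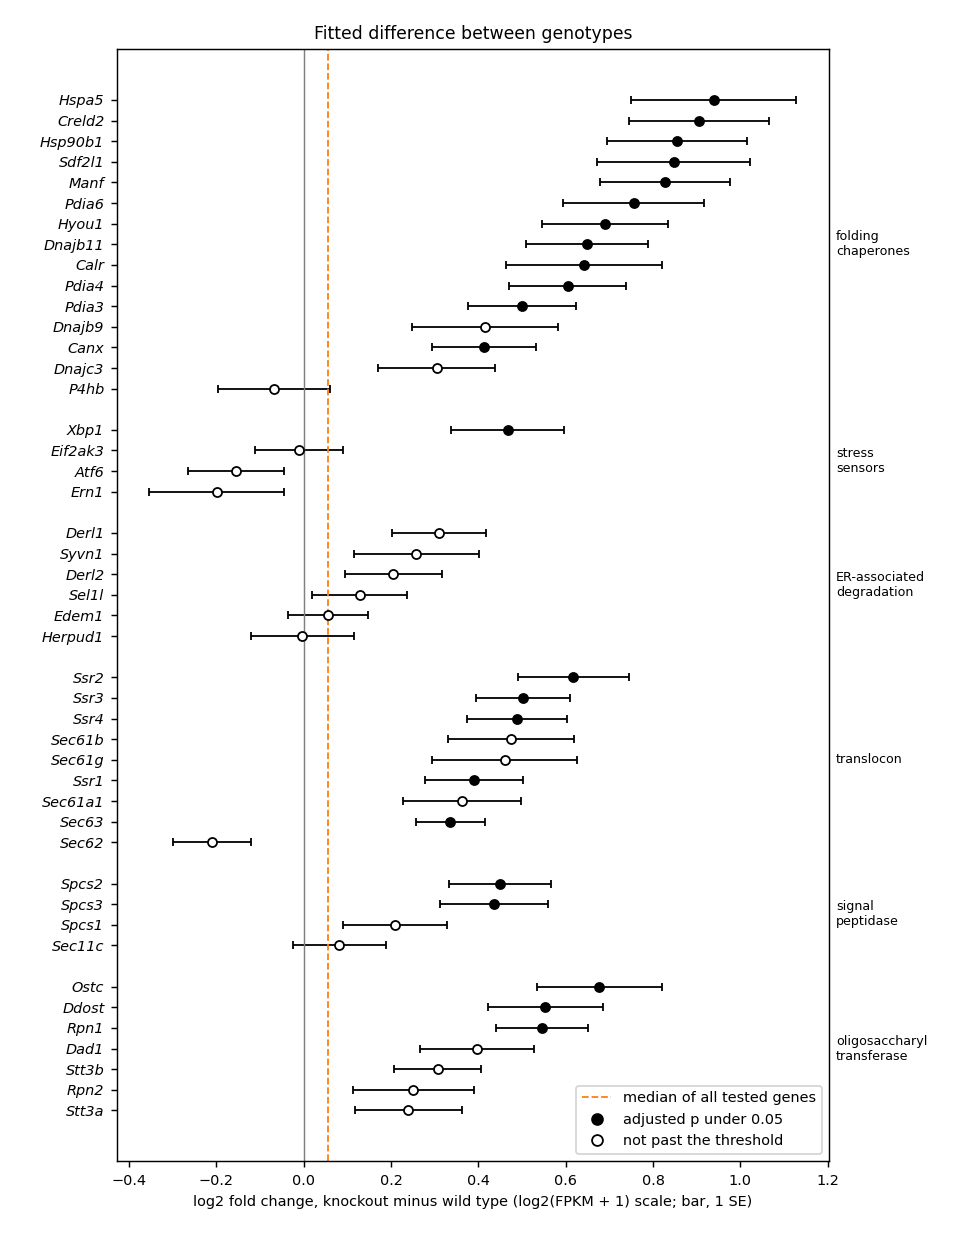
Fitted log2 fold change of each gene (knockout minus wild type, log2(FPKM + 1) scale, 5 libraries in each group; bars are 1 standard error), ordered by role. Filled points passed the adjusted p threshold of 0.05 and the dashed line is the median of all tested genes, 0.06; the 23 filled points lie between 0.34 and 0.94 and 12 of them are folding chaperones.

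Among the chaperones, Hspa5, the Hsp70-type chaperone BiP, which also binds the stress sensors, had the largest fitted change. Its level was 103, 136, 151, 112 and 107 FPKM in wild type 1 to 5 and 291, 265, 146, 221 and 271 FPKM in knockout 1 to 5. The knockout mean was 1.96 times the wild-type mean, with a log2 fold change of 0.94 ± 0.19 (SE; adjusted p = 0.00785 by limma). Knockout 3 lay inside the wild-type range, and the other 4 knockout libraries lay above it. Hsp90b1, the Hsp90-type chaperone GRP94, read 77.2, 82.6, 102, 90.1 and 82.4 FPKM in wild type 1 to 5 and 198, 170.1, 106, 151 and 177 FPKM in knockout 1 to 5. Knockout 3 was lowest here too, but above all wild-type libraries, and the log2 fold change was 0.85 ± 0.16 (SE; adjusted p = 0.00515 by limma). Exons of Hsp90b1 overlap those of the annotated pseudogene 1810014B01Rik on the opposite strand, whose reads cannot be told apart because the use of strand is not given. They also overlap Gm15344 and Gm25745 on the same strand, whose reads strand could not tell apart in any case. Hyou1, the nucleotide exchange factor GRP170 that works with BiP, had levels of 11.1, 8.41, 12.4, 12.9 and 11.3 FPKM in wild type 1 to 5 and 19.7, 17.3, 14.99, 17.2 and 24.9 FPKM in knockout 1 to 5. The groups did not overlap, and the log2 fold change was 0.69 ± 0.14 (SE; adjusted p = 0.00946 by limma).

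Several smaller proteins of the lumen rose as well. Dnajb11, the J-domain cochaperone ERdj3, measured 15.7, 13.8, 21.4, 22.04 and 20.9 FPKM in wild type 1 to 5 and 28.8, 27.2, 31.1, 26.4 and 34.9 FPKM in knockout 1 to 5, a log2 fold change of 0.65 ± 0.14 (SE; adjusted p = 0.0114 by limma). Sdf2l1, which forms complexes with ERdj3, measured 4.73, 4.95, 7.2, 7.73 and 5.71 FPKM in wild type 1 to 5 and 14.4, 10.9, 7.94, 10.7 and 15.04 FPKM in knockout 1 to 5, a log2 fold change of 0.85 ± 0.18 (SE; adjusted p = 0.00893 by limma). The groups were separate for both genes. Manf, a small secreted and lumenal protein that binds BiP, was at 17.7, 23.9, 21.4, 20.3 and 18.6 FPKM in wild type 1 to 5 and 46.4, 41.99, 26.96, 31.1 and 40.7 FPKM in knockout 1 to 5, a log2 fold change of 0.83 ± 0.15 (SE; adjusted p = 0.00407 by limma). Creld2, a lumenal protein with EGF-like domains that is induced by folding stress, was at 15.9, 16.7, 19.7, 19.2 and 15.5 FPKM in wild type 1 to 5 and 37.2, 40.2, 23.1, 27.9 and 42.5 FPKM in knockout 1 to 5, a log2 fold change of 0.91 ± 0.16 (SE; adjusted p = 0.00368 by limma). For Manf and Creld2 the lowest knockout value, in knockout 3, stood above the highest wild-type value. The remaining J-domain cochaperones, Dnajb9 (ERdj4) and Dnajc3 (P58IPK), did not pass the test. Dnajb9 ranged over 8.01 to 10.8 FPKM (wild type) and 8.06 to 17.6 FPKM (knockout), with a log2 fold change of 0.41 ± 0.17 (SE; adjusted p = 0.12 by limma), and Dnajc3 over 19.99 to 26.5 FPKM (wild type) and 21.5 to 34.1 FPKM (knockout), with 0.30 ± 0.13 (SE; adjusted p = 0.152 by limma). Without knockout 3, which had the lowest knockout value of both, Dnajb9 passed (limma adjusted p = 0.0145) and Dnajc3 did not (limma adjusted p = 0.0627).

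Among the disulfide isomerases Pdia3, Pdia4 and Pdia6 rose and P4hb was not called. Pdia6, the isomerase P5, measured 31.2, 41.3, 45.7, 37.4 and 33.6 FPKM in wild type 1 to 5 and 83.5, 71.4, 44.8, 60.2 and 66.8 FPKM in knockout 1 to 5, a log2 fold change of 0.76 ± 0.16 (SE; adjusted p = 0.011 by limma). Knockout 3 lay just inside the wild-type range. Pdia4, the isomerase ERp72, measured 42.4, 45.6, 44.9, 43.3 and 41.2 FPKM in wild type 1 to 5 and 82.1, 66.5, 48.1, 64.5 and 77.3 FPKM in knockout 1 to 5, a log2 fold change of 0.60 ± 0.13 (SE; adjusted p = 0.013 by limma). Its wild-type values were close together, and each knockout value was higher. Pdia3, the isomerase ERp57 that acts on glycoproteins with calnexin and calreticulin, measured 123, 133, 167, 160.1 and 139 FPKM in wild type 1 to 5 and 235, 197, 181, 189.7 and 217 FPKM in knockout 1 to 5, a log2 fold change of 0.50 ± 0.12 (SE; adjusted p = 0.0219 by limma). Its groups were separate, but the call was lost without wild type 1, wild type 5, knockout 1 or knockout 5. P4hb, the founding protein disulfide isomerase and also a subunit of collagen prolyl 4-hydroxylase, was the most abundant of the 45 genes, at 648, 531, 659, 706 and 726 FPKM in wild type 1 to 5 and 556, 568, 655, 665 and 668 FPKM in knockout 1 to 5. Its groups overlapped throughout, with a log2 fold change of -0.07 ± 0.13 (SE; adjusted p = 0.763 by limma). The FPKM ratio of Hspa5 to P4hb within a library was 0.148 to 0.255 in the wild-type and 0.223 to 0.523 in the knockout libraries, with only knockout 3 inside the wild-type range.

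The lectin chaperones Calr and Canx, which hold glycoproteins during folding, also rose. Calr, calreticulin, read 142, 99.97, 188, 176 and 157 FPKM in wild type 1 to 5 and 227, 183, 259, 227 and 283 FPKM in knockout 1 to 5, a log2 fold change of 0.64 ± 0.18 (SE; adjusted p = 0.0361 by limma). Knockout 2 lay inside the wild-type range, and wild type 2 was the lowest library. Canx, calnexin, read 73.3, 84.3, 92.8, 88.9 and 78.02 FPKM in wild type 1 to 5 and 131, 112, 91.1, 107 and 118 FPKM in knockout 1 to 5, a log2 fold change of 0.41 ± 0.12 (SE; adjusted p = 0.0408 by limma). Knockout 3 lay inside the wild-type range. The call ended without any single one of 6 libraries for each gene, at limma adjusted p-values of up to 0.0871 for Calr (without knockout 5) and 0.102 for Canx (without wild type 1).

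**Figure D2:**
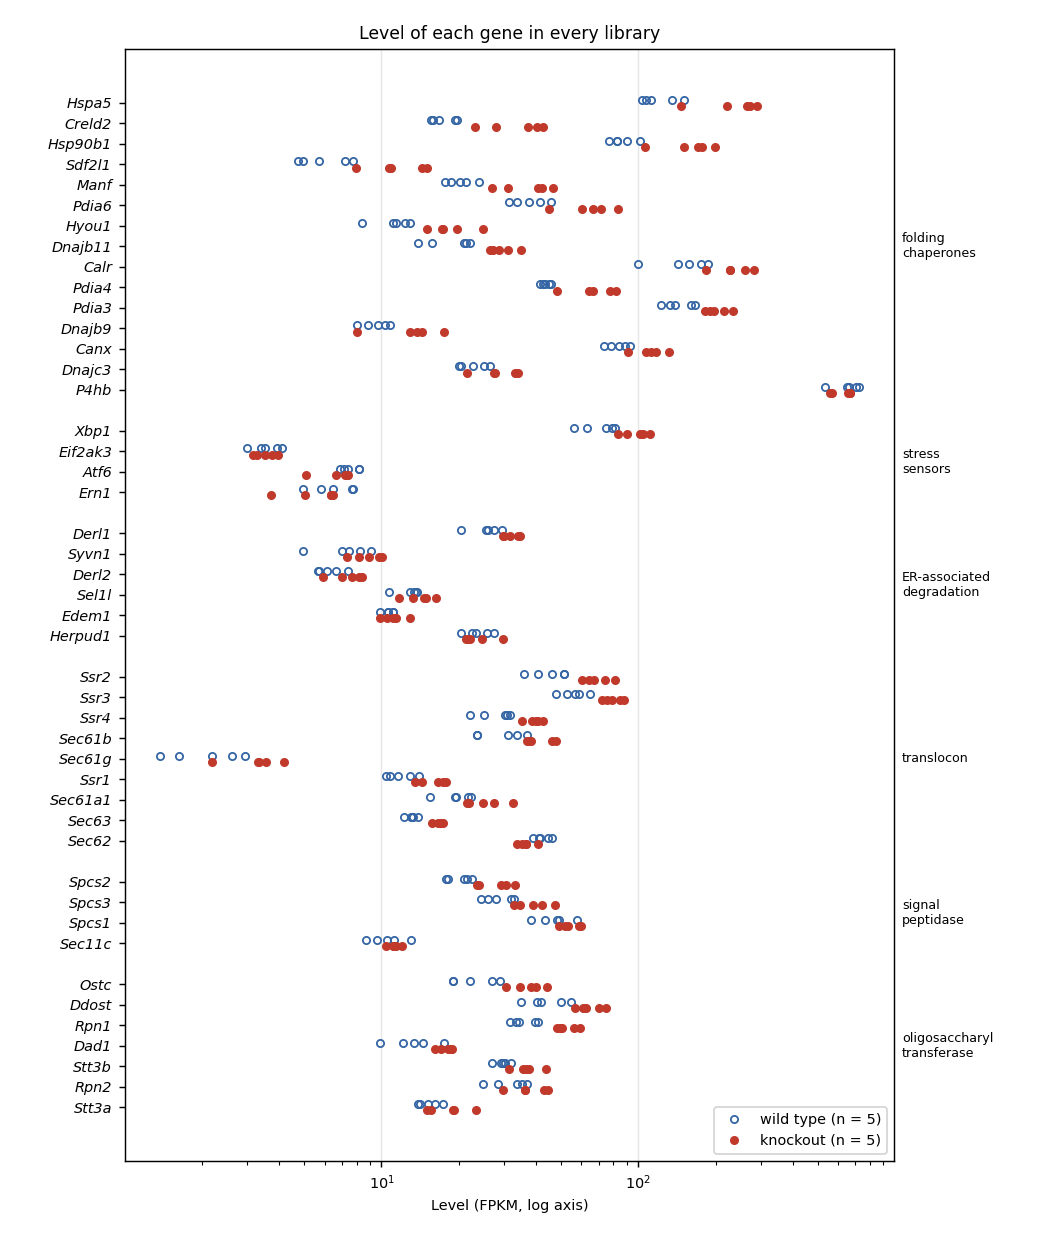
Level of each of the 45 genes (FPKM, log axis) in the 5 wild-type libraries (open circles) and the 5 knockout libraries (filled circles), ordered by role. P4hb is the most abundant gene and its groups overlap at 531 to 726 FPKM and 556 to 668 FPKM, while Hsp90b1, Creld2, Manf and Sdf2l1 have separate groups.

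Promoter sequences were read from the RefSeq promoter table on build GRCm38.p6, which covers 250 bases before to 50 bases after a gene's start and has 38 promoters for 36 of the 45 genes. The endoplasmic reticulum stress element (ERSE) was searched as CCAAT followed after 9 bases by CCACG, on both strands; it is the sequence through which NF-Y and ATF6 act. It was found in 8 of the 38 promoters (21.1%), those of Hspa5, Hsp90b1, Creld2, Pdia6, Calr, Canx, Dnajc3 and Syvn1, and in 39 of all 32851 promoters of the same length (0.12%). Of the 13 folding chaperones with a promoter in the table, 7 held it. The element, and the related one given below, are known from genes of this pathway. Their shares in this list are therefore a description and not independent evidence. The 250 bases before the start of Hspa5 are given because this gene had the largest fitted change. In it and in the shorter stretches the capitals mark the CCAAT and CCACG ends of the match.
Hspa5 upstream (chr2:34771840-34772089, plus strand): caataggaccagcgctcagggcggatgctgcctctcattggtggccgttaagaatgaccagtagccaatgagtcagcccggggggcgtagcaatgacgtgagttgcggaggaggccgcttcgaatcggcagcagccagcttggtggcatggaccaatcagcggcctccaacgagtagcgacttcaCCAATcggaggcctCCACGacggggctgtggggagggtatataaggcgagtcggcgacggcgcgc

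The matches themselves, with 20 bases on either side, are given to show how the bases between the ends, which the search left free, differ between genes. Each is written on the strand on which CCAAT comes first.
Hspa5 (chr2:34772005-34772063, plus strand): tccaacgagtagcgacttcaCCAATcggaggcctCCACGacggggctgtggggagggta
Hsp90b1, distal (chr10:86705618-86705676, minus strand): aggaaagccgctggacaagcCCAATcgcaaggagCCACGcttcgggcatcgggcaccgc
Hsp90b1, proximal (chr10:86705513-86705571, plus strand): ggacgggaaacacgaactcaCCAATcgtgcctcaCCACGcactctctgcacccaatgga
Creld2 (chr15:88819500-88819558, minus strand): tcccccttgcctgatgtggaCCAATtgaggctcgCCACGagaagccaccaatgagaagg
Pdia6 (chr12:17266471-17266529, plus strand): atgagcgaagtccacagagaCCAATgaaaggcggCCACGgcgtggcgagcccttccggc
Calr (chr8:84847055-84847113, plus strand): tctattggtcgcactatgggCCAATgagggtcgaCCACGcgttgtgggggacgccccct
Canx (chr11:50325780-50325838, minus strand): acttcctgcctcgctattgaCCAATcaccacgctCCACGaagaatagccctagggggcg
Dnajc3 (chr14:118937807-118937865, plus strand): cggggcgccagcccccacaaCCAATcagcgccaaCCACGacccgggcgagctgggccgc
Syvn1 (chr19:6046512-6046570, plus strand): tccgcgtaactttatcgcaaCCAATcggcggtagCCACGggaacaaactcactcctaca

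Hsp90b1 was the only one of the 36 genes with more than 1 exact ERSE match in the window. The search allowed no mismatch, so stretches that differ from the pattern by a base were not counted. The match began 65 bases before the start of Hspa5, 98 before Pdia6, 105 before Dnajc3, 145 before Canx and 44 before Syvn1, while those of Calr and Creld2 and the proximal match of Hsp90b1 lay on the opposite strand. A related element, ERSE-II, searched as ATTGG followed after 1 base by CCACG, was found in the promoters of Herpud1 and Dnajb11 and in 12 of all 32851 promoters (0.04%). The Herpud1 match lay 52 to 42 bases before the start. That of Dnajb11 lay after the start, at bases 8 to 18, unlike all other matches given here. Those stretches are shown with the ends of that match in capitals and, for Dnajb11, with 10 bases on either side.
Herpud1 (chr8:94386357-94386407, plus strand): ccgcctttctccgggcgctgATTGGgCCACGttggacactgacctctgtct
Dnajb11 (chr16:22857842-22857872, plus strand): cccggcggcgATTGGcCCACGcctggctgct

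Of the 8 genes with an ERSE match 6 rose, with log2 fold changes of 0.41 to 0.94. Over all 8 the median was 0.70 and the lowest value 0.26. Dnajc3 and Syvn1 carried the match and did not pass the test. Of these 8 genes 7 were folding chaperones, the role with the highest share called, and the part of the element apart from the role was not tested. Of the 26 genes whose promoters held neither element 11 rose, among them Sdf2l1 at 0.85 and Pdia4 at 0.60, and the median over all 26 was 0.39. CCAAT alone, which every ERSE match contains, was present in 29 of the 38 promoters (76.3%), against 37.4% of all promoters. The core ACGTG was present in 13 (34.2%), against 19.6%. The letters TGACGTGG, an XBP1 and ATF6 site known as the UPRE that contains this core, occurred in 0 of the 38 windows and in 0.68% of all promoters. These are matches of letters in a short window and were not tested for binding.

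**Figure D3:**
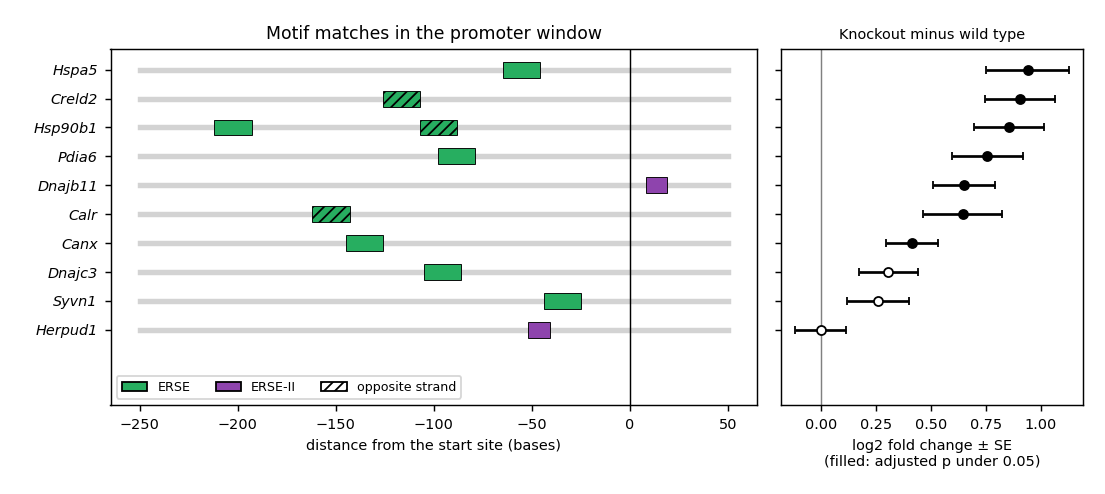
Left, position of ERSE and ERSE-II matches relative to the start site (bases; hatched, opposite strand) in the 10 promoters that hold one, each window running from 250 bases before to 50 bases after the start. Right, log2 fold change with its standard error for the same genes; the 6 ERSE genes and Dnajb11 with filled points rose, and Herpud1, with an ERSE-II match 52 to 42 bases before its start, did not pass the test.

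The 3 genes of the stress sensors themselves did not pass the test. Xbp1, the transcription factor whose messenger is spliced by IRE1, was the exception among the 4 genes of this role. Its level was 56.1, 62.95, 81.2, 75.2 and 79.2 FPKM in wild type 1 to 5 and 104, 90.5, 83.2, 111 and 101 FPKM in knockout 1 to 5, a log2 fold change of 0.47 ± 0.13 (SE; adjusted p = 0.0364 by limma). The groups were separate by a small margin, and the call was lost without any single one of 7 libraries, with a limma adjusted p of up to 0.0885 (without wild type 1). A value over the whole gene does not show how much of the Xbp1 messenger is spliced. Atf6 ranged over 6.92 to 8.19 FPKM (wild type) and 5.07 to 7.42 FPKM (knockout), with a log2 fold change of -0.16 ± 0.11 (SE; adjusted p = 0.368 by limma). Ern1, the gene of IRE1, ranged over 4.96 to 7.74 FPKM (wild type) and 3.73 to 6.49 FPKM (knockout), with a log2 fold change of -0.20 ± 0.15 (SE; adjusted p = 0.419 by limma). Eif2ak3, the gene of PERK, ranged over 3 to 4.09 FPKM (wild type) and 3.17 to 3.97 FPKM (knockout), with a log2 fold change of -0.01 ± 0.10 (SE; adjusted p = 0.959 by limma). All 3 had overlapping groups.

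None of the 6 genes of degradation from the endoplasmic reticulum was called. Over all tested genes 7.9% were called higher and 4.96% lower, so that 0 of 6 by limma is near the background, and at an unadjusted p under 0.05 1 was higher and none lower. That gene was Derl1, a membrane protein of the retrotranslocation site and the most abundant gene of this role. It measured 20.4, 27.4, 29.5, 25.9 and 25.6 FPKM in wild type 1 to 5 and 34.05, 29.8, 29.9, 31.8 and 34.5 FPKM in knockout 1 to 5, a log2 fold change of 0.31 ± 0.11 (SE; adjusted p = 0.077 by limma), and its groups were separate. Derl2, its paralogue, ranged over 5.66 to 7.38 FPKM (wild type) and 5.92 to 8.41 FPKM (knockout), with a log2 fold change of 0.20. The ubiquitin ligase Syvn1 (HRD1) ranged over 4.94 to 9.08 FPKM (wild type) and 7.37 to 10.1 FPKM (knockout), with a log2 fold change of 0.26. Its adaptor Sel1l stood at 10.7 to 13.8 FPKM (wild type) and 11.7 to 16.3 FPKM (knockout), with a log2 fold change of 0.13. The mannosidase-like Edem1 had a log2 fold change of 0.06, a sign that turned after scaling by median ratios (-0.01). Herpud1, a stress-inducible membrane protein that recruits HRD1 partners, was at 23.9 ± 2.78 FPKM in wild type against 23.9 ± 3.55 FPKM in knockout (SD, n = 5 and 5). The FPKM ratio of Hspa5 to Herpud1 within a library was 4.10 to 7.43 in the wild-type and 5.92 to 13.5 in the knockout libraries, with knockout 3 as the only knockout library inside the wild-type range.

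In the translocon, the genes of the translocon-associated protein complex (Ssr1 to Ssr4), which sits beside the Sec61 channel and helps the entry of certain signal peptides, all rose. Ssr3, the most abundant gene of this role, measured 47.9, 65, 58.8, 56.5 and 52.6 FPKM in wild type 1 to 5 and 84.5, 78.8, 75.5, 72.3 and 87.7 FPKM in knockout 1 to 5, a log2 fold change of 0.50 ± 0.11 (SE; adjusted p = 0.0104 by limma). Ssr2 measured 35.9, 51.6, 51.3, 45.96 and 40.7 FPKM in wild type 1 to 5 and 81.4, 67.1, 60.4, 64.1 and 74.4 FPKM in knockout 1 to 5, a log2 fold change of 0.62 ± 0.13 (SE; adjusted p = 0.00874 by limma). Ssr4 measured 22.04, 31.6, 30.3, 30.8 and 25.1 FPKM in wild type 1 to 5 and 42.5, 40.8, 39.9, 35.1 and 38.4 FPKM in knockout 1 to 5, a log2 fold change of 0.49 ± 0.11 (SE; adjusted p = 0.0172 by limma). These 3 genes had separate groups, and the Ssr4 call was lost only without wild type 5 (limma adjusted p = 0.0515). Ssr1 measured 10.8, 10.4, 11.6, 14.01 and 12.9 FPKM in wild type 1 to 5 and 17.4, 14.4, 16.6, 13.5 and 17.9 FPKM in knockout 1 to 5, a log2 fold change of 0.39 ± 0.11 (SE; adjusted p = 0.0412 by limma). Knockout 4 of Ssr1 lay inside the wild-type range, and the call ended without any single one of 8 libraries.

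The channel subunits were higher on average without passing the test. Sec61a1, the pore subunit, ranged over 15.4 to 22.4 FPKM (wild type) and 21.6 to 32.6 FPKM (knockout), a log2 fold change of 0.36 ± 0.13 (SE; adjusted p = 0.0938 by limma). Sec61b, the beta subunit, ranged over 23.4 to 37.02 FPKM (wild type) and 36.98 to 47.9 FPKM (knockout), a log2 fold change of 0.47 ± 0.14 (SE; adjusted p = 0.0503 by limma), the gene nearest to the threshold from outside. It shares 0.235 of its 31-base sequences with other genes, and so is uncertain in how reads were divided. The next largest shares were those of Sec61g (0.157), Ssr2 (0.150) and Spcs1 (0.134). Of the 45 genes, 17 have an exon that overlaps another gene, so the same limit is not confined to the genes where it is named. Sec61g, the gamma subunit, was the lowest of the 45 genes, with 1.37 to 2.93 FPKM (wild type) and 2.18 to 4.16 FPKM (knockout), about 51 fragments in its lowest library, and a log2 fold change of 0.46 ± 0.17 (SE; adjusted p = 0.0868 by limma). Levels of different genes depend on the length of the gene model, which the sources used here do not give, so the low value of Sec61g relative to Sec61b is a property of this table.

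The partners Sec62 and Sec63, which assist proteins that enter the channel after translation, differed in sign. Sec63, which brings BiP to the channel, measured 13.1, 12.2, 13.2, 13.03 and 13.8 FPKM in wild type 1 to 5 and 16.99, 15.8, 16.6, 17.4 and 17.04 FPKM in knockout 1 to 5, a log2 fold change of 0.34 ± 0.08 (SE; adjusted p = 0.0172 by limma). The spread within each group was small and the groups were separate, but each of the 2 scalings tried, by median ratios and by quantiles, ended the call. Both scalings also ended the calls of Calr, Canx, Xbp1, Ssr1 and Spcs3, and scaling by quantiles those of Pdia3 and Spcs2. Sec62, which is also a receptor for autophagy of the endoplasmic reticulum, measured 44.6, 46.1, 41.5, 38.8 and 40.97 FPKM in wild type 1 to 5 and 36.5, 36.5, 33.8, 40.6 and 35.1 FPKM in knockout 1 to 5, a log2 fold change of -0.21 ± 0.09 (SE; adjusted p = 0.14 by limma). It was the gene at an unadjusted p under 0.05 and lower, and its groups overlapped. The FPKM ratio of Sec63 to Sec62 within a library was 0.265 to 0.338 in the wild-type and 0.430 to 0.492 in the knockout libraries. The groups did not overlap in this ratio. That follows in part from its construction, since Sec63 rose and Sec62 was lower, and is not further evidence. Part of the Sec62 sequence, a share of 0.111 of its 31-base sequences, is shared with the opposite-strand gene 4933429H19Rik.

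Of the signal peptidase subunits, Spcs2 and Spcs3 rose. Spcs2 measured 17.9, 21.5, 22.5, 20.9 and 18.2 FPKM in wild type 1 to 5 and 33.2, 30.4, 23.6, 23.99 and 29.3 FPKM in knockout 1 to 5, a log2 fold change of 0.45 ± 0.12 (SE; adjusted p = 0.028 by limma). Spcs3 measured 24.5, 32.8, 31.96, 27.9 and 26.02 FPKM in wild type 1 to 5 and 47.3, 39, 32.9, 34.5 and 42 FPKM in knockout 1 to 5, a log2 fold change of 0.44 ± 0.12 (SE; adjusted p = 0.039 by limma). Both had separate groups by a small margin, and their calls were lost without any single one of 5 libraries for Spcs2 and 6 for Spcs3. Spcs1, a small accessory subunit and the most abundant of the 4, measured 38.1, 57.9, 48.97, 48.4 and 43.2 FPKM in wild type 1 to 5 and 59.6, 58.9, 51.7, 49 and 53.1 FPKM in knockout 1 to 5, a log2 fold change of 0.21 ± 0.12 (SE; adjusted p = 0.264 by limma). The catalytic subunit Sec11c ranged over 8.74 to 13.1 FPKM (wild type) and 10.4 to 12.1 FPKM (knockout), with a log2 fold change of 0.08 ± 0.11 (SE; adjusted p = 0.647 by limma). For Spcs1 and Sec11c wild type 2 was the highest wild-type library and lay among the knockout values or above them.

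Of the 7 oligosaccharyl transferase genes 3 rose. Ddost, a subunit of all forms of the enzyme and the most abundant of the 7, measured 40.2, 35, 54.8, 49.8 and 41.9 FPKM in wild type 1 to 5 and 60.9, 56.8, 70.4, 62.6 and 74.6 FPKM in knockout 1 to 5, a log2 fold change of 0.55 ± 0.13 (SE; adjusted p = 0.0186 by limma). Rpn1, ribophorin I, measured 33.4, 31.6, 40.9, 39.4 and 34.4 FPKM in wild type 1 to 5 and 59.3, 49.6, 48.4, 50.5 and 56.4 FPKM in knockout 1 to 5, a log2 fold change of 0.55 ± 0.10 (SE; adjusted p = 0.00594 by limma). Ostc, which belongs to the form that works at the translocon, measured 18.99, 27.02, 28.96, 22.2 and 18.99 FPKM in wild type 1 to 5 and 44.2, 39.9, 30.4, 34.6 and 38.3 FPKM in knockout 1 to 5, a log2 fold change of 0.68 ± 0.14 (SE; adjusted p = 0.00999 by limma). All 3 had separate groups. The calls of Rpn1 and Ostc were kept without each single library, while that of Ddost was lost without wild type 1, wild type 5 or knockout 5. The catalytic subunit Stt3a of the translocon form ranged over 13.9 to 17.4 FPKM (wild type) and 15.1 to 23.3 FPKM (knockout), a log2 fold change of 0.24 ± 0.12 (SE; adjusted p = 0.215 by limma). Stt3b, the catalytic subunit of the other form, ranged over 27.04 to 31.9 FPKM (wild type) and 31.4 to 43.8 FPKM (knockout), a log2 fold change of 0.31 ± 0.10 (SE; adjusted p = 0.065 by limma). Their FPKM ratio, Stt3b over Stt3a, was 1.71 to 2.11 in the wild-type and 1.88 to 2.27 in the knockout libraries, and the groups overlapped. Rpn2 and Dad1 had log2 fold changes of 0.25 and 0.40 and did not pass (limma adjusted p = 0.25 and 0.066).

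**Figure D4:**
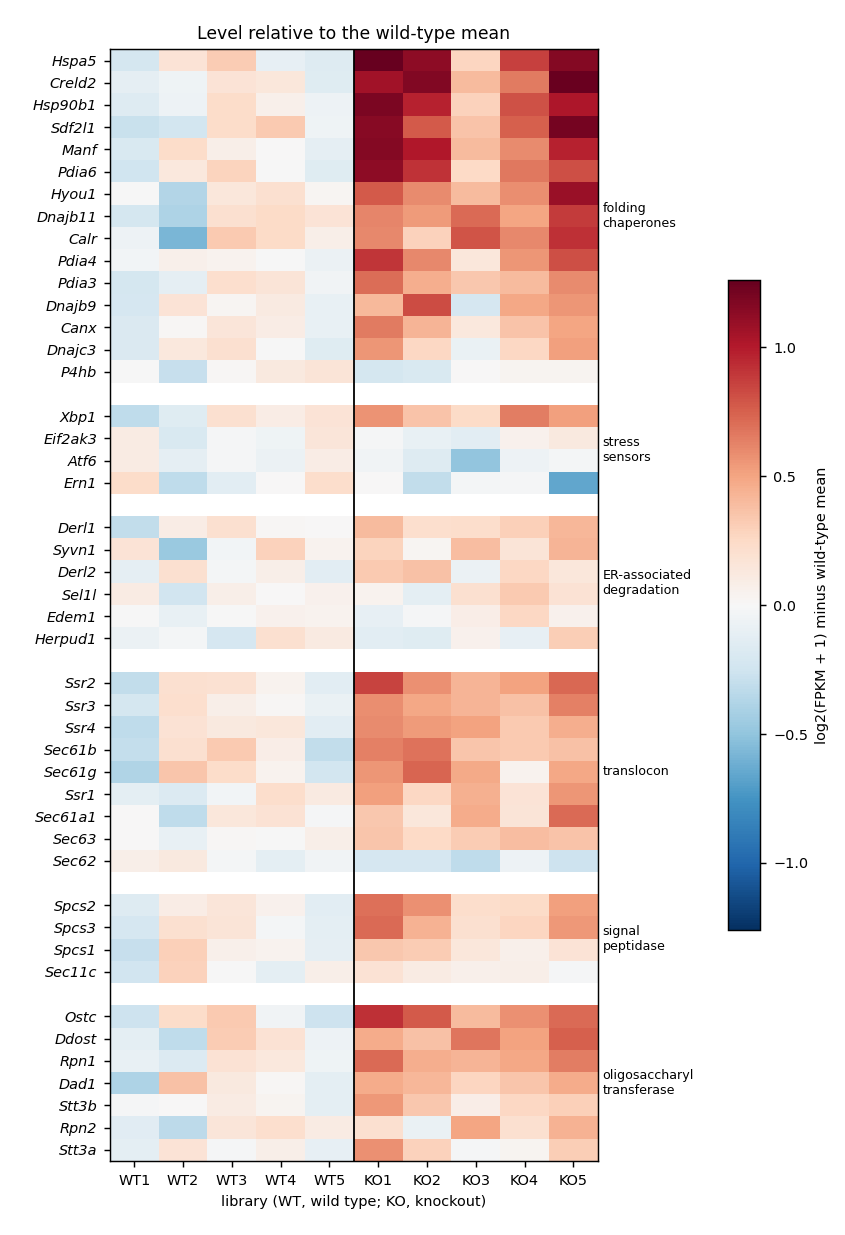
Level of each gene in each library relative to the mean of the 5 wild-type libraries (log2(FPKM + 1) difference; red higher, blue lower), ordered by role. Knockout 1 and 5 are the reddest columns over the folding chaperones and knockout 3 the palest, while P4hb, Sec62 and the sensors other than Xbp1 show little red in the knockout columns.

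The size of the difference varied between the knockout libraries, and mostly over the chaperones. Averaged over the 15 chaperones, the level relative to the wild-type mean was 0.80, 0.65, 0.28, 0.54 and 0.82 log2 units in knockout 1 to 5, against -0.16 to 0.18 in wild type. For the translocon genes the same averages were 0.47, 0.39, 0.35, 0.25 and 0.45, so knockout 3 was low over the chaperones without being the lowest over the translocon. It was also the lowest knockout library over oligosaccharyl transferase (0.333, with knockout 4 at 0.343), signal peptidase (0.157, with knockout 4 at 0.163) and the stress sensors (-0.10). Over the degradation genes knockout 2 was lowest (0.05, with knockout 3 at 0.15). Knockout 3 had the lowest knockout value of 12 of the 15 chaperones (all but P4hb, Calr and Dnajb11) and of 16 of the 23 genes that rose, and knockout 1 the highest of 13 of the 23. The log2 fold change of Hspa5 was 1.10 without knockout 3, and 23 genes were called, 21 of them among the 23 called with it. In wild type, wild type 1 had the lowest value of 14 of the 23 genes and wild type 3 the highest of 12. The clock output gene Dbp, whose level depends on the time of day, was at 22.6, 12.04, 1.25, 16.4 and 1.73 FPKM in wild type 1 to 5 and 14.5, 8.45, 0.84, 0.56 and 0.38 FPKM in knockout 1 to 5. Knockout 5, with the lowest Dbp, and knockout 1, with the highest Dbp of the knockout libraries, had the highest chaperone levels. With the mean of 4 clock output genes as covariate, limma called 17 of the 45 genes, all of them among the 23. The median log2 fold change was 0.43 in that fit. The clock mean was 2.496 to 4.693 log2 units in wild type and 1.482 to 4.076 in knockout. Knockout 3, 4 and 5 lay below every wild-type library. Because the clock mean differs between the groups in this way, the fit cannot fully separate it from genotype. The part of time of day was not tested further.

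**Figure D5:**
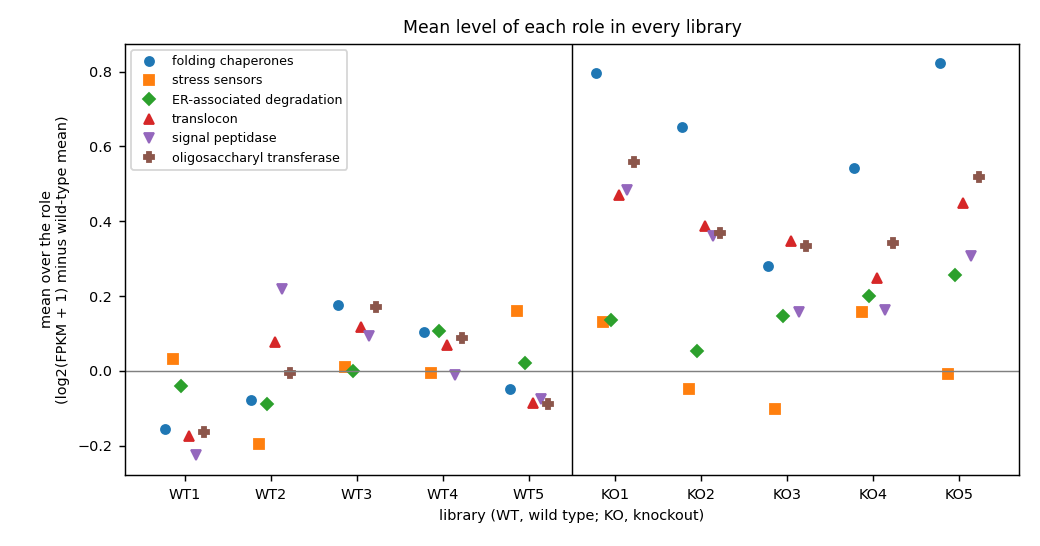
Mean over the genes of each role of the level relative to the wild-type mean (log2(FPKM + 1) difference) in each of the 10 libraries. Folding chaperones are at 0.54 to 0.82 in knockout 1, 2, 4 and 5 and at 0.28 in knockout 3, while the stress sensors stay between -0.19 and 0.16 in all libraries.

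The number of genes called depended on single libraries and on the covariate. It was 15 without wild type 1, 14 without wild type 5 and 15 without knockout 5, and between 16 and 24 without each of the others. Of the 23 genes 14 (9 of them chaperones) kept their call without each single library. They were Hspa5, Hsp90b1, Creld2, Manf, Sdf2l1, Hyou1, Pdia4, Pdia6, Dnajb11, Sec63, Ssr2, Ssr3, Rpn1 and Ostc. A mean log2 value was taken over the 22 markers of fibroblasts, endothelium and muscle, of which only Dcn and Mylpf passed the filter and were tested. It was 0.251 to 0.379 in the wild-type and 0.156 to 0.248 in the knockout libraries and did not overlap between the groups. Its part in the result was not tested beyond the following fit. With that mean as covariate limma called 0 of the 45 genes (smallest adjusted p = 0.0898; 18 higher and 0 lower at an unadjusted p under 0.05), and 67 higher and 78 lower of all genes. The median log2 fold change of the 45 genes was 0.41 with and without that covariate. Dcn, itself called lower, was at 4.42 to 13.6 FPKM in wild type and 0.06 to 1.12 FPKM in knockout. Because the covariate differs between the groups in this way, the fit cannot tell it apart from genotype. After scaling by median ratios 17 genes were called and after quantile normalization 15, none lower in either (1 lower at an unadjusted p under 0.05 in each), while the calls over all genes went from 900 higher and 565 lower to 651 and 746, and to 685 and 746.

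Other genes of the same pathway, listed by function and not among the 45, were called in smaller number; the difference from the 45 was not tested. Of 96 such genes 88 were tested, 9 rose (10.2%, against 7.9% of all tested genes) and 1 fell (1.14%, against 4.96%), with a median log2 fold change of 0.15. Among 26 other folding genes 2 rose (7.69%), which is near the share over all tested genes. Dnajc10, the disulfide reductase ERdj5, was at 7.3, 10.5, 10.2, 9.55 and 8.07 FPKM in wild type 1 to 5 and 17.2, 13.4, 14.9, 11.8 and 14.6 FPKM in knockout 1 to 5, a log2 fold change of 0.60 ± 0.13 (SE; adjusted p = 0.00898 by limma). Ero1a, the oxidase that recharges disulfide isomerases, was at 11.1, 13.6, 13.9, 10.4 and 11.7 FPKM in wild type 1 to 5 and 19.8, 19.4, 14.6, 17.7 and 17.5 FPKM in knockout 1 to 5, a log2 fold change of 0.52 ± 0.11 (SE; adjusted p = 0.0119 by limma). Both had separate groups. Among 23 other genes of targeting and translocation 4 rose (17.4%). These were Emc2, a subunit of the membrane protein insertase (10.8 ± 1.61 FPKM in wild type against 15.5 ± 1.24 FPKM in knockout), Srp19 of the signal recognition particle (8.63 ± 0.9 FPKM in wild type against 11.9 ± 1.12 FPKM in knockout), its receptor subunit Srprb (6.62 ± 1.15 FPKM in wild type against 9.25 ± 1.1 FPKM in knockout) and the translocon neighbour Tram1 (27.9 ± 2.33 FPKM in wild type against 35.8 ± 4.07 FPKM in knockout; SD, n = 5 and 5 for each), with log2 fold changes of 0.35 to 0.48. Among 5 other oligosaccharyl transferase genes 2 rose (40%). These were Tusc3 of the Stt3b form (3.19 ± 0.605 FPKM in wild type against 5.16 ± 0.683 FPKM in knockout) and Krtcap2 of the Stt3a form (14.8 ± 2.15 FPKM in wild type against 20.3 ± 3.11 FPKM in knockout), with log2 fold changes of 0.56 and 0.43. Among 22 other degradation genes 1 rose (4.55%, below the share over all tested genes). This was Selenos, a membrane selenoprotein that binds the ATPase p97 (27.3 ± 2.69 FPKM in wild type against 35.3 ± 3.91 FPKM in knockout), with a log2 fold change of 0.36. The calls of Dnajc10, Ero1a, Emc2 and Tusc3 were kept without each single library, and those of Srp19, Srprb, Tram1, Krtcap2 and Selenos were not.

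Among 12 other stress signalling genes, those downstream of PERK included, limma called 0 higher (0 at an unadjusted p under 0.05) and 1 lower. Against 7.9% and 4.96% of all tested genes, these counts are near the background. The gene called lower was Trib3, a pseudokinase induced through ATF4 and CHOP, at 8.55, 4.8, 4.21, 4.35 and 5.27 FPKM in wild type 1 to 5 and 2.27, 1.8, 2.37, 3.07 and 2.09 FPKM in knockout 1 to 5, a log2 fold change of -0.93 ± 0.17 (SE; adjusted p = 0.00407 by limma). Its groups were separate, with wild type 1 well above the other libraries. Atf4 itself was at 64.5 ± 8.83 FPKM in wild type against 65 ± 9.84 FPKM in knockout, and Ddit3, the gene of CHOP, at 3.84 ± 0.879 FPKM in wild type against 3.44 ± 1.26 FPKM in knockout (SD, n = 5 and 5; limma adjusted p = 0.975 and 0.641). The symbol Ddit3 stands on more than 1 line of the table, and the line with the higher level was used.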

How the data were processed

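RNA sequencing was compared in 10 libraries of mouse esophageal epithelium, 5 per genotype, grouped by sample title. The authors deposited FPKM values; cutadapt, HISAT2 2.0.1, HTSeq 0.6.1 and build mm9 are named in the submitters' processing notes. The sources used here do not give settings, the annotation, strand use or the scaling total. No count table was used. Depth was estimated from single-exon genes of up to 1200 bp as the total at which 97.8% to 98.5% of values are whole fragments within 0.01 beyond rounding.

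A gene entered the test when 5 or more libraries had 1 FPKM or more. Values were fitted as log2(FPKM + 1) with limma 3.58.1 (R 4.3.3), genotype as the only term, using trended, robust empirical Bayes; p-values were adjusted by Benjamini-Hochberg over all 11386 genes. The 45 genes (members), the lists of other pathway and marker genes, the motifs and the alternatives were chosen with earlier results of these data known. Every member past the threshold, Hspa5, Xbp1 and the most abundant gene of each role were to be given in every library, and other pathway genes by name if past the threshold, up to 4 per group. Genes named outside that rule are members given by range, Atf4, Ddit3 and marker genes. As alternatives, pseudocounts of 0.1 and 5 were tried, also no filter, a filter at 5 FPKM, median-ratio and quantile scaling, no trend and robust estimation, covariates for mesenchymal markers and clock genes, the replicate number as a block, and leaving out each library with the tested genes kept. The fit was tested on simulated data. Shared 31-base sequences and overlapping exons came from GENCODE M21 (GRCm38), and promoters from RefSeq (GRCm38.p6); positions are on that build, not mm9. Plots used matplotlib 3.10.9 (Python 3.11.15).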

Additional observations from a re-analysis of the deposited data

Results flagged for a closer look

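Trib3 in wild type 1 stood apart from the other wild-type libraries. It was at 8.55 FPKM there and at 4.21 to 5.27 FPKM in the other 4, a gap of 0.756 of the whole range of the group. In all, 110 groups of 5 values were examined (each member and each called pathway gene in each genotype), of which about 5.5 would be picked out by chance at this level, and no member was. The call of Trib3 was kept without wild type 1.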

How the results depend on the processing

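The 10 alternatives other than left-out libraries, and the 10 left-out libraries, left the median log2 fold change of the 45 genes positive, at 0.32 to 0.45 and 0.36 to 0.48. Without any filter 511 genes were higher (900 as reported) and 5 pathway genes (9 as reported); with a filter at 5 FPKM 329 genes were lower (565 as reported) and 0 pathway genes. With the mesenchymal covariate 67 genes were higher and 78 lower, 0 of the 45 genes (members) and 0 pathway genes were higher and 0 pathway genes lower, and the medians were 0.0701 for the stress sensors and 0.25 for degradation. Quantile normalization gave 15 members (23 as reported) and 5 pathway genes, and median ratios 5 pathway genes. The clock covariate gave 2 lower pathway genes (1 as reported), and a pseudocount of 5 a translocon median of 0.31, which follows from its construction. The cause of the other shifts was not tested.

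Leaving out 1 library gave 436 to 1091 genes higher, 357 to 679 lower, 14 to 24 members higher, 0 lower, 4 to 10 pathway genes higher and 1 to 2 lower. A change of sign was seen only for 4 members whose reported value was near 0. With the mesenchymal covariate P4hb was at 0.17, Eif2ak3 at 0.15 and Herpud1 at 0.17; Edem1 was at -0.0074 after median ratios and -0.0209 after quantiles. Without single libraries Eif2ak3 was at -0.0589 to 0.0280 and Herpud1 at -0.0829 to 0.0457.

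The labels do not say that the sample numbers pair the groups. Same-numbered libraries had correlations of their deviations from -0.241 to 0.423, over 0.1 for 3 of 5 numbers, and 2 of 10 libraries correlated best with their own number, so no pairing was assumed. With the replicate block 16 members were higher, all among the 23 (Canx, Pdia3, Sec63, Spcs2, Spcs3, Ssr1 and Xbp1 were not called), and 773 genes higher and 551 lower. The remaining alternatives, pseudocount 0.1 and no trend or robust estimation, gave 23 members each. Depth limits Sec61g most, at about 51 fragments.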
